A study of Mus musculus with 19 samples.

Results

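The levels of 10 genes that mark the blood and lymph vessels of the skin were followed across mouse squamous tumours and normal skin. They were taken by symbol from the count table, in which each row is 1 Ensembl gene, and each of the 10 symbols matched exactly 1 of its 34807 rows. Blood vessel markers were Pecam1, Cdh5, Kdr, Flt1, Tek, Emcn and Plvap, and lymphatic markers were Lyve1, Prox1 and Flt4. The rule used symbols and no expression values, but the members were chosen with earlier results of these data known. All 10 passed the filter on low counts (at least 5 counts in at least 1 library), as did 32031 genes in all.

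In the GENCODE annotation of GRCm38, the build of the count table, the members lie on 7 chromosomes. The adhesion genes are Pecam1 (ENSMUSG00000020717) at chr11:106654217-106750628 on the minus strand and Cdh5 (ENSMUSG00000031871) at chr8:104101625-104144511 on the plus strand. The VEGF receptors are Kdr (ENSMUSG00000062960) at chr5:75932827-75978458 on the minus strand, Flt1 (ENSMUSG00000029648) at chr5:147561604-147726011 on the minus strand and Flt4 (ENSMUSG00000020357) at chr11:49609263-49652739 on the plus strand. The angiopoietin receptor is Tek (ENSMUSG00000006386) at chr4:94739289-94874976 on the plus strand. Surface genes of blood endothelium are Emcn (ENSMUSG00000054690) at chr3:137341067-137432185 on the plus strand and Plvap (ENSMUSG00000034845) at chr8:71497765-71511752 on the minus strand. The remaining lymphatic genes are Lyve1 (ENSMUSG00000030787) at chr7:110850607-110863239 on the minus strand and Prox1 (ENSMUSG00000010175) at chr1:190118035-190170714 on the minus strand. Counts were summed over the exons of each gene, which total 1987 (Plvap) to 13504 (Flt1) bases. Exon bases were shared with another gene only for Prox1.

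RNA from whole tissue was sequenced from 15 squamous cell carcinomas and 4 samples of normal skin, with 1 library per sample, to compare tumours that start from different cells of the epidermis. The carcinomas carried Ivl:BRAFV600E (6 tumours), K5:BRAFV600E (5) or K14:BRAFV600E (4), and the NormalSkin samples were wild type control littermates. BRAFV600E is a constitutively active form of the kinase BRAF. Tamoxifen-inducible Cre recombinase switched it on in mice that were, per the labels, 7 to 20 weeks old, under the Ivl (involucrin) promoter of differentiating progenitors or the K5 and K14 keratin promoters of basal cells. Per the labels all mice were female and on a C57BL/6J background. Recombination was restricted to keratinocytes by these promoters, so the vessels belonged to the host and carried no mutation by design, and a vessel gene was measured only in a mixture with tumour and other stromal cells. In such bulk samples, fewer cells of a type and less RNA per cell cannot be told apart. By the study's account, Ivl tumours arose later and at several body sites, and K5 and K14 tumours on the treated back. Ivl mice were induced with tamoxifen, and K5 and K14 mice with hydroxytamoxifen. Site, latency and inducing drug therefore moved with the promoter. For the main comparisons the K5 and K14 libraries were treated as 1 group of 9 tumours, K5/K14, a grouping taken from the study.

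Endothelial cells line all blood and lymph vessels. Pecam1 and Cdh5 encode CD31 and VE-cadherin, which hold neighbouring endothelial cells together, and Plvap builds the diaphragms of fenestrae and caveolae. Emcn encodes endomucin, a sialomucin of capillary and venous endothelium. Growth of blood vessels is driven by VEGF-A through the receptor VEGFR2 (Kdr), while VEGFR1 (Flt1) binds VEGF-A and PlGF and restrains the signal. Tek encodes TIE2, the receptor of the angiopoietins, through which angiopoietin 1 keeps vessels quiet and angiopoietin 2 acts against it. Lymphatic endothelium is specified by the homeobox factor Prox1, grows by VEGF-C and VEGF-D through VEGFR3 (Flt4), and carries the hyaluronan receptor Lyve1. Some of these genes are not exclusive to vessels: Lyve1 is also made by some tissue macrophages, Prox1 by skeletal muscle, and Flt4 by sprouting blood vessels.

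Values are counts per 1000000 counts of the library (CPM) after scaling with TMM factors, and a gene was called changed at an adjusted p under 0.05 in edgeR's quasi-likelihood test over all genes. Totals ranged from 45715309 to 72609771 counts. TMM factors were 1.43 to 1.66 in skin and 0.81 to 1.15 in tumours. The non-polyadenylated RNA Rn7sk had an unscaled CPM of 2279 to 3275 in skin against 5.10 to 13.3 in the 11 tumours outside the set described next. Within that set it was 2.12 in Ivl tumour 1, 1283 in Ivl tumour 2, 934 in Ivl tumour 3 and 2.36 in K5 tumour 1. Skin libraries thus differed from most tumours in make-up, and the part of this in the differences from skin was not tested. Ivl tumours 1, 2 and 3 and K5 tumour 1 formed a set of 4 libraries for which the mean log2 CPM differed from that of the other 15 libraries by under 0.1 in 96.6% of 13954 genes, although no skin library was in the set. For the 10 vessel genes this difference ran from -0.01 to 0.07. Against the other 11 tumours alone, the set was higher by 1.08 log2 for Tek, by 1.14 for Prox1 and by 0.86 for Lyve1. Tests of the members and counts over the pooled lists are therefore given over all 19 libraries and over the 15 outside this set (3 Ivl, 8 K5/K14 and 4 skin). The part of the authors' batch adjustment in this closeness was not tested.

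The promoters of the 4 members that differed between K5/K14 tumours and skin are printed because 2 of these genes were higher and 2 lower. The RefSeq table (GRCm38.p6) held windows of 300 bases for 6 of the 10 members: Flt1, Tek, Emcn, Prox1, Kdr and Flt4. Each window runs from 250 bases before the transcript start to 50 after it and is written in the direction of transcription, and capitals mark the searched motifs on either strand. The motifs searched were AGGAAG, a core of ETS factor sites, its longer relative CCGGAAG, which cannot match at the same place, the GATA factor motif AGATAA, then ACAATG for SOX factors and lastly the TATA motif TATAAA.
Emcn, chr3:137340828-137341127, plus strand: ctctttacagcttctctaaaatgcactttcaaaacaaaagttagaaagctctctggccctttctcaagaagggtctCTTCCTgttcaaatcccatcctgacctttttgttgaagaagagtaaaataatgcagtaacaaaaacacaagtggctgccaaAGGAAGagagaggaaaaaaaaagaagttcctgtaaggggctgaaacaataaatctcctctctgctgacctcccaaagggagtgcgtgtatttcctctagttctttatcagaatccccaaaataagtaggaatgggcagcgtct
Flt1, chr5:147725962-147726261, minus strand: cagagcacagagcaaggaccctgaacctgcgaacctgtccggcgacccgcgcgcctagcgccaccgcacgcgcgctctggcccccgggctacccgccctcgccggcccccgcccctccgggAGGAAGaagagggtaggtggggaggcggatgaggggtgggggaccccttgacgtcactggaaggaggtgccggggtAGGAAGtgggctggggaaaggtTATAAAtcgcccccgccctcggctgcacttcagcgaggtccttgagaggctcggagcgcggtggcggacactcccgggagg
Tek, chr4:94739039-94739338, plus strand: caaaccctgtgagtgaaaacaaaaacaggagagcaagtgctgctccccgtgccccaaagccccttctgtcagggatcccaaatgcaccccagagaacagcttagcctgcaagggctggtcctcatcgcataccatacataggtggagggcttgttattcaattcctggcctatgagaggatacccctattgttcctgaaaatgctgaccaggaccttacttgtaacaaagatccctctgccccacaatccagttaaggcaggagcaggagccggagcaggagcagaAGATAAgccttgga
Prox1, chr1:190170778-190171077, minus strand: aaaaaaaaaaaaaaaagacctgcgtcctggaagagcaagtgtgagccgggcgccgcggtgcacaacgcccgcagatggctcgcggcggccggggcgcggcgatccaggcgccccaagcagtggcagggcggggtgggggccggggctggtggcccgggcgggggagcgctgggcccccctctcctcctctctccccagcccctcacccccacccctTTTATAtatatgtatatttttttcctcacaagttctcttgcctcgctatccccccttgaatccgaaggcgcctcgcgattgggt

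AGGAAG lay 2 times in each of the Emcn and Flt1 windows and in 35.4% of all 32851 windows of the table. The Flt1 window also held TATAAA, as did this Prox1 window and 13.6% of all windows. The Tek window held 1 AGATAA, present in 11.2% of all windows. CCGGAAG (8.86% of all windows) and ACAATG (12.6%) had no match in any of the 7 windows of the 6 members. None of the 5 motifs lay in the Kdr and Flt4 windows or in the second Prox1 window. The matches describe letters in these windows and no binding was measured.

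**Figure D1:**
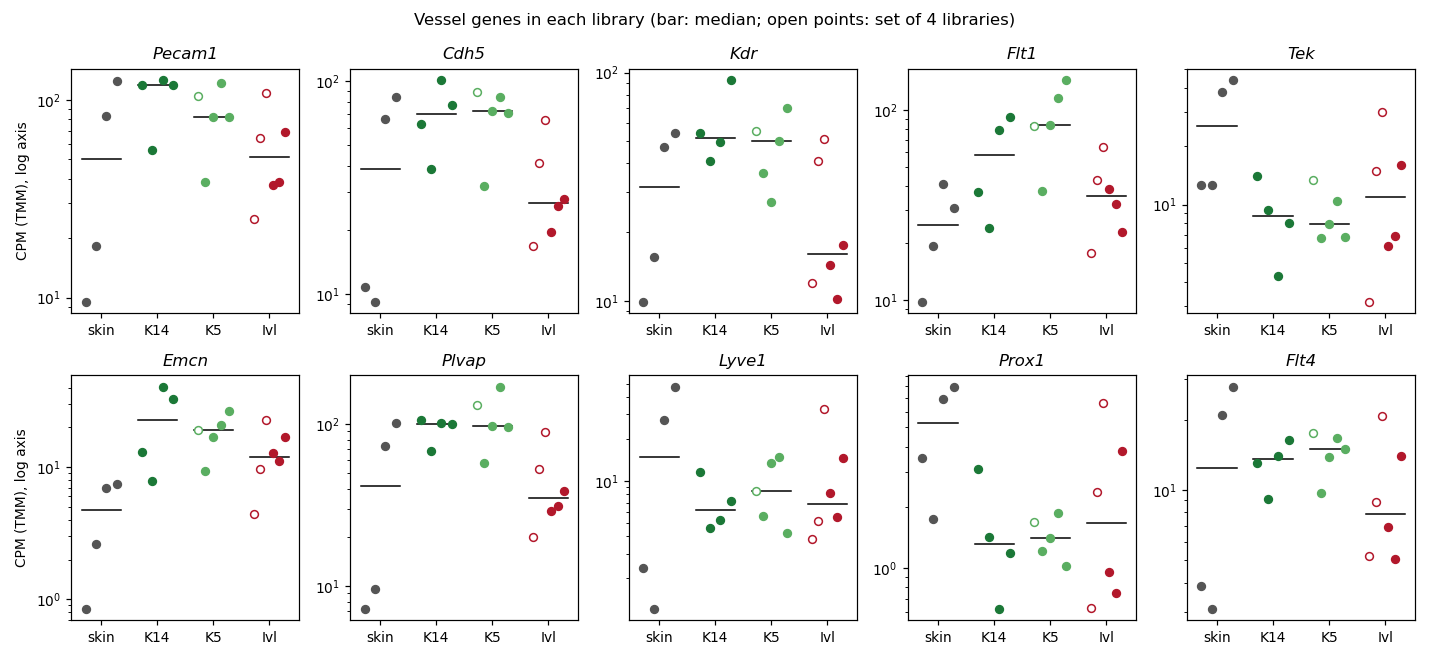
Level of each vessel gene in every library, in CPM on a log axis, with 1 point per library, open points for the set of 4 libraries and a bar at the median of each group. Skin libraries 1 and 2 lie below 3 and 4 in every panel, and Emcn is the panel in which all K5 and K14 points lie above all skin points.

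Emcn and Flt1 were higher and Tek and Prox1 lower in K5/K14 tumours than in normal skin, so 4 of the 10 members were called, 2 in each direction. The background was high: 62.2% of all tested genes were called in this comparison, 23.2% as higher and 38.9% as lower. Over the 15 libraries the same 4 members were called, where 66.2% of genes were. A count of 4 in 10 is thus below the share of all genes, and the results concern these genes one by one.

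Emcn had the largest difference of the 10. The skin libraries 1 to 4 held 0.84, 2.61, 6.91 and 7.41 CPM, and the 9 K5/K14 tumours ran from 7.81 (K14 tumour 2) over a median of 19.03 to 40.8 (K14 tumour 3). No tumour reached down to the skin range, and Emcn was 1 of 10 members for which these groups did not overlap, against 41.4% of all genes. Its log2 difference was 2.22 (SE 0.57, edgeR adjusted p = 0.0028), or 4.66-fold, and 2.23 (SE 0.58, adjusted p = 0.0042) over the 15 libraries. It stayed called in all 27 alternatives, between 1.88 and 2.58.

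Flt1, the restraining VEGF receptor, was 9.78, 19.3, 40.9 and 30.6 CPM in skin 1 to 4. The K5/K14 tumours ran from 23.9 over a median of 82.2 to 145 CPM, so the lowest tumours lay inside the skin range. The difference was 1.62 log2 (SE 0.48, adjusted p = 0.0073), and 1.61 (SE 0.50, adjusted p = 0.0116) over the 15 libraries. Kdr, the signalling VEGF receptor, was 9.89, 15.6, 47.4 and 54.4 CPM in skin and 27.2 to 93.1 CPM in the tumours (median 50.2). Its log2 difference of 0.73 (SE 0.48, adjusted p = 0.19) did not pass the test.

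Tek went the other way. Skin held 12.5, 12.6, 38.0 and 44.1 CPM, and the K5/K14 tumours 4.29 to 14.0 CPM with a median of 8.02. Of the 9 tumours, 7 lay below every skin library, and K14 tumour 1 (14.0) and K5 tumour 1 (13.5) lay just above skin 1 and 2. Tek fell by 1.57 on the log2 scale (SE 0.45, edgeR adjusted p = 0.0060), and by 1.67 (SE 0.37, adjusted p = 0.0013) over the 15 libraries. The alternatives ran from -1.80 to -1.23, and all 27 kept the call.

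Prox1 was the weakest of the 10 genes, with 3.53, 1.74, 6.96 and 7.99 CPM in skin and 0.62 to 3.117 CPM (median 1.3997) in K5/K14 tumours. Skin 2 lay inside the tumour range, and the other 3 skin libraries lay above all tumours. The fall was 1.75 log2 (SE 0.52, adjusted p = 0.0076), and the difference was -1.77 over the 15 libraries (SE 0.47, adjusted p = 0.0040). All 27 alternatives kept the call between -2.04 and -1.44. The gene shares 133 exon bases with Prox1os, which is transcribed from the opposite strand, and since it is not stated whether strand was used in counting, reads of the pair could not be told apart. At these levels the tumour libraries held 26 to 155 Prox1 counts each.

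The remaining lymphatic markers did not pass the test. Lyve1 was 2.37, 1.203, 27.5 and 47.6 CPM in skin, a spread of 39.6-fold among 4 libraries, and 4.21 to 14.7 CPM in K5/K14 tumours. Its log2 difference was -1.24 (SE 0.70, adjusted p = 0.13). Flt4 was 3.88, 3.08, 20.998 and 27.7 CPM in skin and 9.15 to 17.5 CPM in the tumours, with a difference of -0.0023 (SE 0.47, adjusted p = 0.998). The tumours sat between the low and high skin libraries for both genes.

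Pecam1, Cdh5 and Plvap were also not called. Pecam1 was 9.48, 18.2, 82.8 and 125 CPM in skin, and 38.6 to 127 CPM in K5/K14 tumours with a median of 105 (log2 difference 0.68, SE 0.53, adjusted p = 0.26). Cdh5 was 10.8, 9.14, 66.6 and 84.1 CPM in skin, and 32.1 to 102 in the tumours with a median of 72.4 (0.71, SE 0.51, adjusted p = 0.23). Plvap was 7.21, 9.61, 73.01 and 102 CPM in skin and 57.6 to 170.4 in the tumours with a median of 101 (1.11, SE 0.57, adjusted p = 0.095). The tumours varied 2.96-fold to 3.28-fold in these 3 genes, and the skin libraries 9.20-fold to 14.1-fold. Without skin 4, Plvap (1.78, adjusted p = 0.020) and Pecam1 (1.36, adjusted p = 0.048) passed the threshold, and without skin 2 so did Lyve1 (-1.63, adjusted p = 0.037). The 6 members that were not called differed in the 15 libraries from skin by -1.24 (Lyve1) to 1.06 (Plvap), with adjusted p-values of 0.13 to 0.93.

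**Figure D2:**
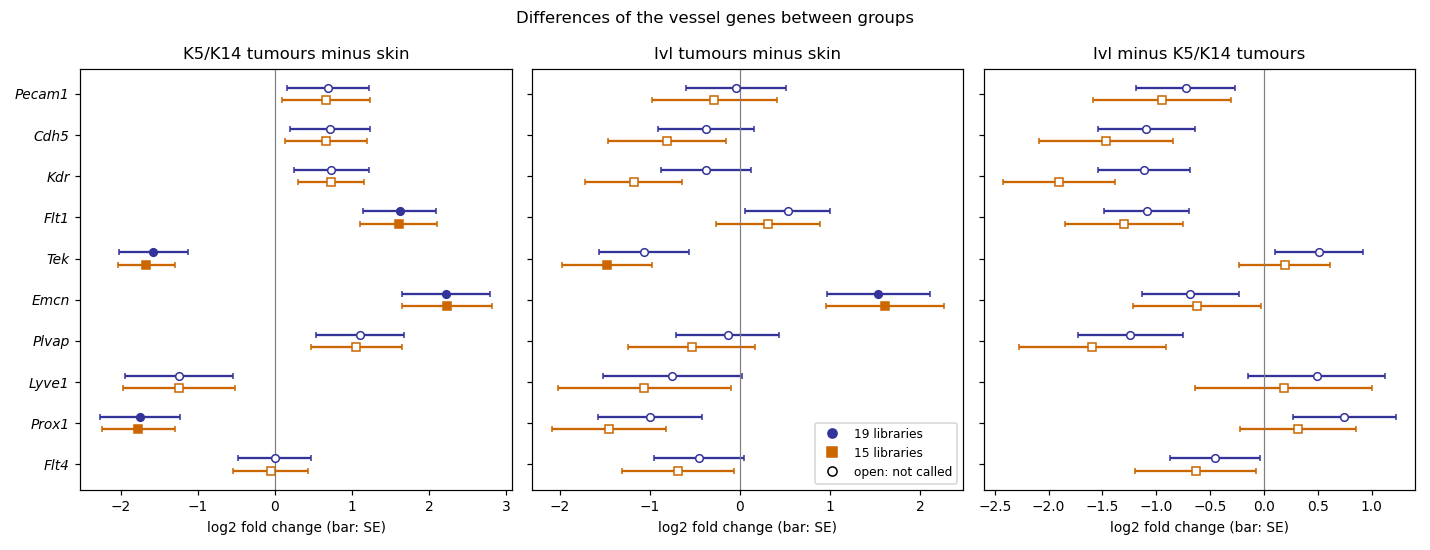
Log2 fold change of each vessel gene with its standard error in 3 comparisons, as circles over 19 libraries and squares over 15, filled where the adjusted p was under 0.05. In K5/K14 tumours minus skin Flt1, Emcn, Tek and Prox1 are filled in both sets of libraries, and in Ivl minus K5/K14 tumours no symbol is filled.

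The skin libraries themselves set how much could be seen. Skin 1 and 2 were the 2 lowest of the 4 skin libraries for all 10 members, and skin 4 was the highest for 9. Markers of some other cells moved with this order, and those of others did not. The summed CPM of 6 fibroblast genes was 3276, 815, 13193 and 18176 in skin 1 to 4, and that of 8 macrophage genes was 129, 83.0, 607 and 870. Platelet, adipocyte and red blood cell sums were also lower in skin 1 and 2. The sum of 10 pericyte and smooth muscle genes was 550, 1017, 758 and 821 in skin 1 to 4. Skeletal muscle genes summed to 3890, 12201, 4630 and 2799, and keratinocyte genes to 5507, 11009, 7847 and 9320. Between groups, 6 skeletal muscle genes summed to 2799 to 12201 CPM in skin against 5.72 to 396 in K5/K14 tumours, all 6 of them called lower. The 5 adipocyte genes summed to 80.2 to 227 CPM in skin against 0.71 to 47.6 (3 of 5 called lower), and 7 keratinocyte genes to 5507 to 11009 against 61116 to 98492 (7 of 7 called higher). Red blood cell genes summed to 18.6 to 45.3 CPM in skin and 42.5 to 412 in the tumours (5 of 6 higher and 1 lower, with reads of near-identical haemoglobin copies possibly split), and platelet genes to 5.86 to 37.9 and 6.46 to 17.5 CPM (0 of 4 called in edgeR or DESeq2, and 0 at an unadjusted p under 0.05). Of the fibroblast genes 1 of 6 was called lower. Of the macrophage genes, which mark cells that can also make Lyve1, 1 of 8 was called lower over 19 libraries, 4 of 8 over the 15 and 5 of 8 by DESeq2. The part of these cells in the differences of Tek, Prox1 or any other member was not tested.

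Levels relative to Cdh5 in the same library set the endothelial content of a sample aside as far as 1 gene can, and were added after the spread among the skin libraries had been seen. Among the blood markers, Tek had the largest mean difference in this ratio. The log2 ratio of Tek to Cdh5 was 0.22, 0.46, -0.81 and -0.93 in skin 1 to 4, and -4.57 to -2.04 in the 9 K5/K14 tumours (median -3.02). No tumour overlapped skin, and the mean difference was -2.69. Prox1 to Cdh5 was -1.61, -2.39, -3.26 and -3.40 in skin and -7.35 to -4.33 in K5/K14 tumours, a mean difference of -2.92 with no overlap. Flt4 to Cdh5 was within a narrow range in skin, at -1.48, -1.57, -1.66 and -1.60, and lower in every K5/K14 tumour, at -2.86 to -1.73. The K5/K14 ranges of these ratios were the same without K5 tumour 1. These were 3 of the 9 ratios of members, all lower in the tumours. Of 14858 genes, 12.5% had a ratio to Cdh5 that did not overlap between these groups. No test was run on the ratios, since the members had been chosen with earlier results known.

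The other ratios of members overlapped between K5/K14 tumours and skin. Pecam1 to Cdh5 was -0.19 to 0.99 in skin and 0.19 to 0.92 in the tumours, and Plvap to Cdh5 was -0.58 to 0.27 and -0.01 to 1.02. The ratio of Emcn to Cdh5 was -3.68, -1.81, -3.27 and -3.50 in skin and -2.31 to -1.25 in the tumours, so skin 2 alone reached the tumour range. Lyve1 to Cdh5 was -2.93 to -0.82 in skin and -4.27 to -2.43 in the tumours. In Ivl tumours, Tek to Cdh5 ran from -2.43 to -0.80 and Prox1 to Cdh5 from -5.11 to -2.86, between skin and K5/K14 tumours in both medians. Between Ivl and K5/K14 tumours all ratios of members overlapped over 19 libraries. Over the 15 libraries those of Tek, Lyve1 and Emcn were higher in Ivl tumours without overlap, by 1.52, 1.62 and 0.96 in the mean. The ratios of the other members overlapped there too. The share over all genes is not given for this comparison.

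**Figure D3:**
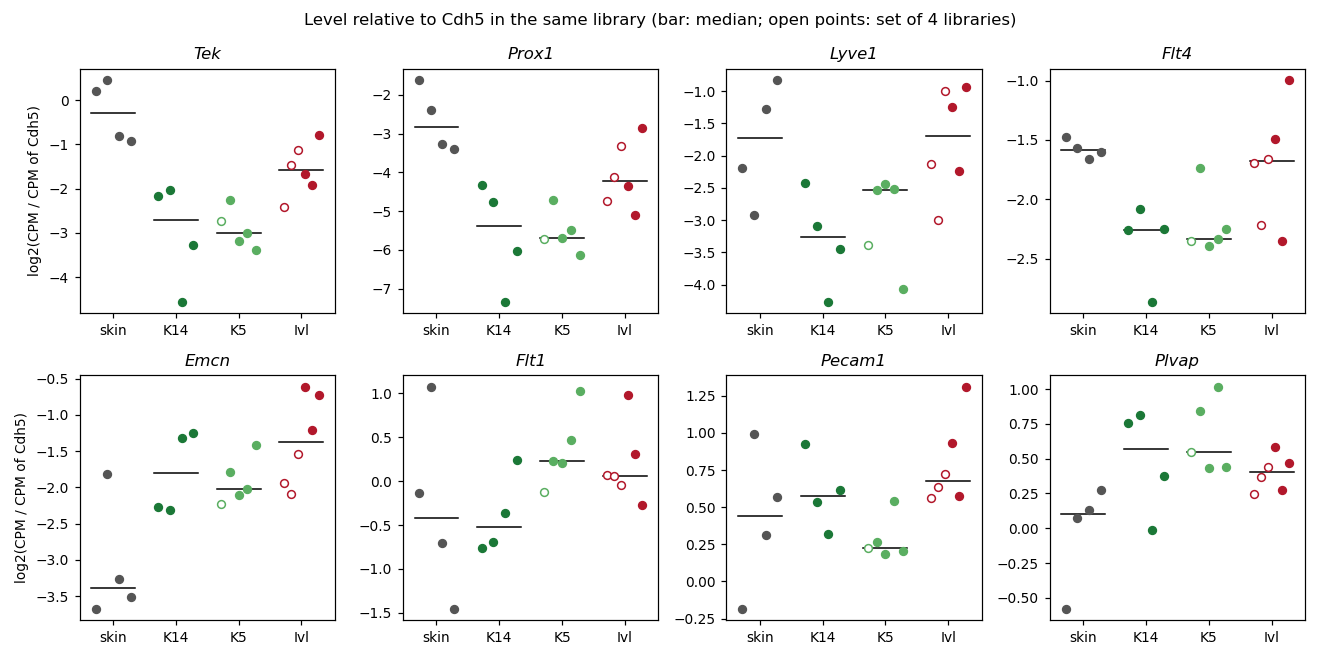
Log2 ratio of 8 vessel genes to Cdh5 in the same library, with 1 point per library, open points for the set of 4 libraries and a bar at the group median. For Tek and Prox1 all K5 and K14 points lie below all skin points, with Ivl tumours between them in the median.

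Blood and lymphatic markers were set against each other as the mean log2 CPM of the 7 blood genes minus that of the 3 lymphatic genes. The difference was 1.11, 2.50, 1.37 and 1.13 in skin 1 to 4 (mean 1.53 ± 0.66, SD, n = 4). It was 2.21 ± 0.52 in Ivl tumours (n = 6), 2.99 ± 0.43 in K5 tumours (n = 5) and 3.13 ± 0.61 in K14 tumours (n = 4). Of the 4 skin libraries, 3 lay below all 9 K5/K14 tumours (2.47 to 3.80), while skin 2 lay just inside their range. The 6 Ivl tumours (1.49 to 2.74) overlapped both other groups. The mean of the blood markers was 2.80 to 5.58 log2 CPM in skin, 3.51 to 5.77 in Ivl tumours and 4.65 to 5.86 in K5/K14 tumours. The lymphatic mean was 0.92 to 4.46, 1.25 to 4.05 and 1.87 to 2.97 in the same order. The 3 Ivl tumours outside the set of 4 ran from 4.22 to 4.70 in the blood mean and from 1.49 to 3.21 in the lymphatic mean. Their blood minus lymphatic value was 2.18 ± 0.63 (SD, n = 3), and that of the 8 K5/K14 tumours outside the set was 3.05 ± 0.52 (SD, n = 8). Median log2 fold changes against skin were 0.73 for the 7 blood and -1.24 for the 3 lymphatic genes in K5/K14 tumours, and -0.13 and -0.75 in Ivl tumours. Over all tested genes the medians were -0.60 and -0.46, and over protein-coding genes -0.04 and -0.01.

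**Figure D4:**
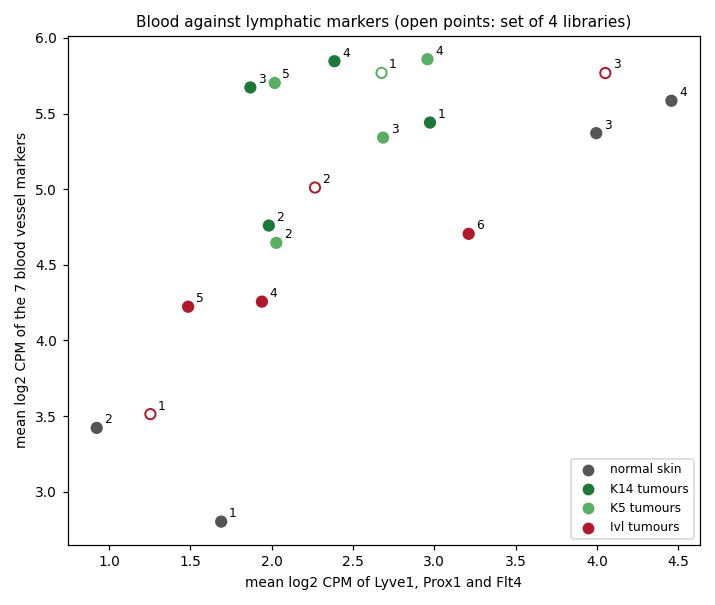
Mean log2 CPM of the 7 blood vessel markers (vertical) against that of Lyve1, Prox1 and Flt4 (horizontal), with 1 point per library numbered by replicate and open points for the set of 4 libraries. Skin 3 and 4 lie far to the right at 3.995 and 4.46, and the K5 and K14 tumours lie at 1.87 to 2.97 on the horizontal axis.

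Ivl tumours differed from normal skin in 1 member, Emcn, while 35.9% of all genes were called, 20.4% as higher and 15.5% as lower. Of all calls 56.8% were thus higher in Ivl tumours, and 45.6% with DESeq2's size factors. Emcn was 4.41 to 22.6 CPM in the 6 Ivl tumours (median 11.96) against 0.84 to 7.41 in skin, and only Ivl tumour 1 lay within the skin range. The difference was 1.54 log2 (SE 0.57, edgeR adjusted p = 0.042). This call was close to the threshold: 10 of the 27 alternatives lost it, with adjusted p-values up to 0.11, among them those without skin 1 (0.093), skin 2 (0.11), Ivl tumour 3 (0.069), Ivl tumour 4 (0.062), Ivl tumour 5 (0.057), Ivl tumour 6 (0.074) or K14 tumour 1 (0.057). Over the 15 libraries Emcn (1.61, SE 0.65, adjusted p = 0.049) and Tek (-1.47, SE 0.50, adjusted p = 0.023) were called, where 54.9% of genes were.

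Tek was 3.14 to 30.0 CPM in all 6 Ivl tumours (median 10.9) and differed from skin by -1.06 log2 (SE 0.50, adjusted p = 0.098). It was 6.11, 6.84 and 16.0 CPM in Ivl tumours 4, 5 and 6, outside the set, and passed the threshold without Ivl tumour 3 (-1.53, adjusted p = 0.013), as did Prox1 (-1.58, adjusted p = 0.023). Prox1 was 0.63 to 6.62 CPM in Ivl tumours (difference -0.999, SE 0.58, adjusted p = 0.17). Ivl tumour 3 held the highest level of the 6 Ivl tumours for all 10 members, and Ivl tumour 1 the lowest for 8. Their skeletal muscle genes summed to 2134 and 4.50 CPM, and their fibroblast genes to 10716 and 1518, and the part of this in the members' levels was not tested. The other 7 members differed from skin by -0.75 (Lyve1), -0.46 (Flt4), -0.38 (Kdr), -0.38 (Cdh5), -0.13 (Plvap), -0.04 (Pecam1) and 0.53 log2 (Flt1), with adjusted p-values of 0.36 to 0.95. Over all Ivl tumours the skeletal muscle sum ran from 4.50 to 5891 CPM. Over 19 libraries 0 of its 6 genes were called against skin in edgeR or DESeq2, and 0 had an unadjusted p under 0.05. In the 3 Ivl tumours outside the set the sum ran from 7.82 to 363 CPM, against 2799 to 12201 in skin. Over the 15 libraries edgeR called 2 of the 6 genes lower. Of the keratinocyte genes, 6 of 7 were called higher. No member had Ivl and skin ranges that did not overlap over 19 libraries (22.2% of all genes did not), and 1 of 10, Emcn, over the 15 (57.8%).

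In the direct comparison of Ivl with K5/K14 tumours, 0 of the 10 members were called in edgeR, where 2.36% of all genes were (1.77% higher and 0.593% lower in Ivl tumours). At an unadjusted p under 0.05 there were 4 members, and DESeq2 called 1, Flt1 (-1.11, adjusted p = 0.048). Those 4 were all blood markers and all lower in Ivl tumours. Plvap was 20.0 to 89.3 CPM in Ivl tumours (median 34.9) and differed by -1.24 log2 (SE 0.49, adjusted p = 0.16). Kdr was 10.2 to 51.4 CPM (median 16.1) and differed by -1.11 (SE 0.43, adjusted p = 0.14). Cdh5 was 16.9 to 65.7 CPM (median 26.8) and differed by -1.09 (SE 0.45, adjusted p = 0.17). Flt1 was 17.7 to 63.8 CPM (median 35.3) and differed by -1.09 (SE 0.40, adjusted p = 0.13). Pecam1 and Emcn had differences of -0.73 and -0.68 (adjusted p = 0.39 and 0.40), and Tek one of 0.51 (0.50). The lymphatic markers went both ways, with Lyve1 at 0.49, Prox1 at 0.75 and Flt4 at -0.45 (adjusted p = 0.70, 0.39 and 0.56).

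Over the 15 libraries, 0 of 10 members were called, where 0.41% of genes were, and 4 had an unadjusted p under 0.05. The values for Kdr were 10.2, 14.4 and 17.7 CPM in the 3 Ivl tumours against 27.2 to 93.1 CPM in the 8 K5/K14 tumours, a difference of -1.90 log2 (SE 0.52, adjusted p = 0.14). Cdh5 (19.5 to 27.8 against 32.1 to 102 CPM) and Plvap (29.2 to 38.5 against 57.6 to 170.4 CPM) also had ranges apart, with adjusted p-values of 0.39 for each. For 3 of 10 members the groups did not overlap, against 4.86% of all genes. These 3 are not independent of each other: over 19 libraries the Pearson r of log2 CPM with Cdh5 was 0.96 for Plvap and 0.86 for Kdr. The summed CPM of the 6 fibroblast genes also lay apart, at 1464 to 2671 in these Ivl and 3756 to 12536 in these K5/K14 tumours (0 of 6 called). Sums of the other cell type markers overlapped. The part of this in the members' levels was not tested.

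Between K5 and K14 tumours 0 of the 10 members were called in edgeR. Log2 differences, K5 minus K14, were 0.68 for Flt1, 0.37 for Lyve1, 0.24 for Plvap, 0.15 for Flt4, 0.02 for Tek, -0.01 for Cdh5, -0.14 for Prox1, -0.29 for Pecam1, -0.31 for Kdr and -0.35 for Emcn, with adjusted p-values of 0.89 or more, and 0 of 10 had an unadjusted p under 0.05. In edgeR 0% of genes were called over 19 libraries and 0.0532% over 15, and DESeq2 called 0 of the 10 members. Flt1 was 23.9, 37.0, 79.0 and 91.7 CPM in the K14 tumours and 37.5, 82.2, 83.3, 117 and 145 CPM in the K5 tumours, in ascending order.

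Between genes, levels were compared per kilobase of exon. In K5/K14 tumours the median was highest for Plvap (50.7 CPM per kilobase), followed by Cdh5 (17.2), Pecam1 (16.8), Flt1 (6.09), Kdr (5.56), Emcn (3.52), Lyve1 (2.44), Tek (1.70), Flt4 (1.70) and Prox1 (0.17). Only the step from Plvap to Cdh5 and that from Flt4 to Prox1 were wider than the spread among tumours. All other neighbours overlapped. In skin Plvap was also first (20.8) and Prox1 last (0.63), but Tek held rank 4 (5.37) and Emcn rank 9 (0.88), and in Ivl tumours they held ranks 6 (2.31) and 7 (2.21). No pair of neighbours was apart in skin or in Ivl tumours.

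Several ligands of these receptors were higher in the tumours than in skin. Vegfa, which encodes VEGF-A, was 39.4, 65.3, 51.9 and 53.6 CPM in skin 1 to 4, 62.8 to 177 in Ivl tumours and 122 to 378 in K5/K14 tumours. It was higher than in skin by 2.14 log2 in K5/K14 tumours (SE 0.33, edgeR adjusted p = 3.4e-05) and by 1.16 in Ivl tumours (SE 0.33, adjusted p = 0.010). Pgf, which encodes the Flt1 ligand PlGF, was 0.46 to 1.15 CPM in skin and 2.097 to 22.6 in K5/K14 tumours. It rose by 4.02 log2 there (SE 0.78, adjusted p = 0.00034), and 3 of the 9 tumours, K14 tumours 1 and 2 and K5 tumour 2, held under 3 CPM while the other 6 held 12.5 or more. In Ivl tumours its difference from skin was 1.74 (SE 0.72, adjusted p = 0.063).

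Of the angiopoietins, Angpt2 was 2.93 to 4.89 CPM in skin, 6.09 to 14.7 in Ivl tumours and 9.66 to 58.8 in K5/K14 tumours. It was higher by 3.02 log2 in K5/K14 tumours (SE 0.47, adjusted p = 4.2e-05) and by 1.41 in Ivl tumours (SE 0.45, adjusted p = 0.021). Angpt1, its counterpart, was 3.56 to 6.30 CPM in skin and 1.15 to 2.67 in K5/K14 tumours and fell by 1.53 log2 (SE 0.38, adjusted p = 0.0022). In Ivl tumours Angpt1 differed from skin by -1.07 (SE 0.42, adjusted p = 0.053), and by -1.51 over the 15 libraries (SE 0.37, adjusted p = 0.0034). Tie1, the orphan partner of TIE2, did not follow Tek: it was higher in K5/K14 tumours by 1.81 (SE 0.39, adjusted p = 0.00080), and its difference in Ivl tumours was 0.87 (adjusted p = 0.086).

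The lymphatic growth factors did not pass the test. Vegfc differed from skin by 0.58 (adjusted p = 0.38) in K5/K14 and -0.11 (0.88) in Ivl tumours, and Vegfd by -0.23 (0.56) and -0.22 (0.63). Vegfb, another Flt1 ligand, was lower in K5/K14 tumours by 0.67 log2 (adjusted p = 0.0043), and in Ivl tumours its difference was -0.43 (adjusted p = 0.095). The co-receptors of VEGF and semaphorins were lower in both: Nrp1 differed from skin by -0.86 in K5/K14 (adjusted p = 0.030) and -1.0004 in Ivl tumours (0.038), and Nrp2 fell by 1.09 (0.0017) and 0.80 (0.037). Between tumours, Angpt2 (-1.62, SE 0.37, adjusted p = 0.033) and Pgf (-2.27, SE 0.60, adjusted p = 0.0497) were lower in Ivl tumours, and Vegfa had a difference of -0.98 (adjusted p = 0.056). Over the 15 libraries none of these 3 passed the test (adjusted p = 0.29, 0.37 and 0.39).

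**Figure D5:**
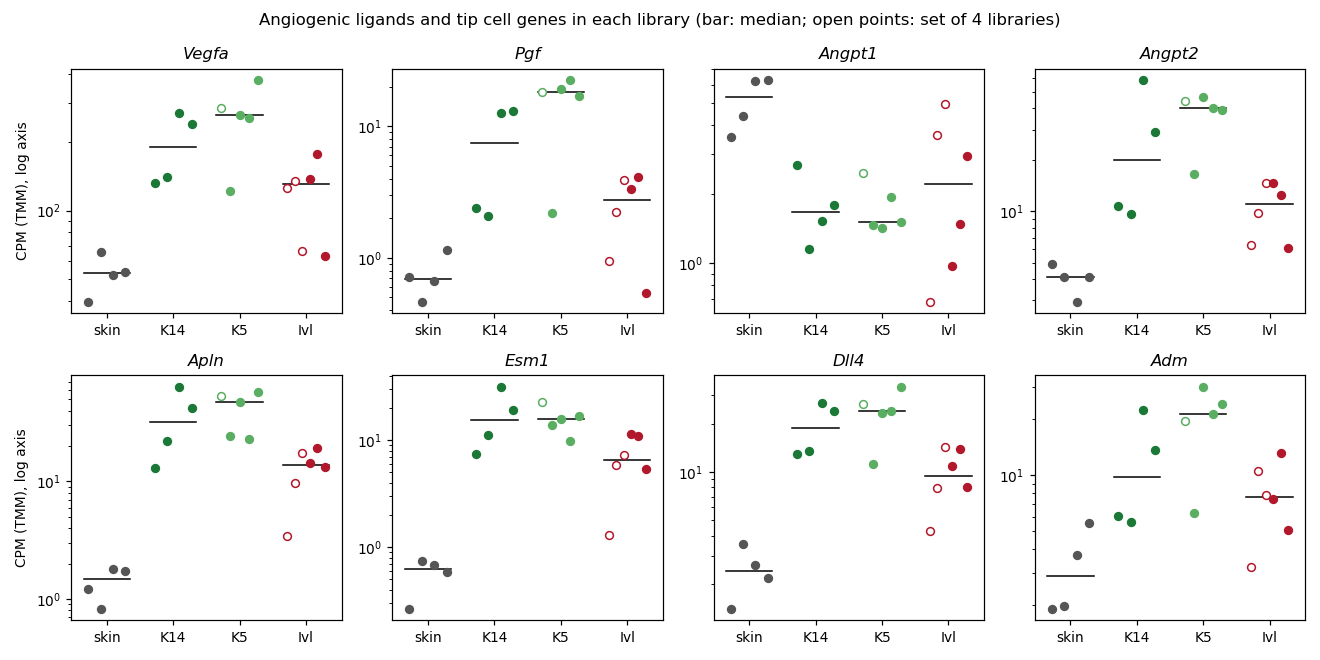
Levels of 8 angiogenic ligand and tip cell genes in every library, in CPM on a log axis, with open points for the set of 4 libraries and a bar at the group median. Vegfa, Pgf, Angpt2, Apln, Esm1 and Dll4 lie higher in all K5 and K14 tumours than in skin, and Angpt1 lies lower.

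Other vessel genes were counted in 8 lists of 73 tested genes that are no members. In K5/K14 tumours against skin, 19 of the 73 were higher and 17 lower, with a median log2 fold change of 0.19, and over the 15 libraries 19 were higher and 20 lower. Of all tested genes, 23.2% were higher and 38.9% lower over 19 libraries, and 66.2% were called over the 15. Of 9 tip cell genes, which mark the leading cells of a sprout, 6 were higher and 0 lower (median 3.02). The largest differences were those of Esm1 (4.86, adjusted p = 2.3e-06), a proteoglycan of sprouting endothelium, and of the peptide ligand Apln (4.78, adjusted p = 2.2e-06). Of 12 angiogenic ligands, a list that shares Apln, Angpt2, Dll4 and Pgf with the tip cell list, 6 were higher and 3 lower (median 1.38), Apln and Pgf leading. Of 17 junction and surface genes, 4 were higher and 2 lower (median 0.40). Gpihbp1, which holds lipoprotein lipase on capillaries, was higher by 2.90 (adjusted p = 0.0011) and Ecscr by 2.42 (adjusted p = 0.00036).

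Transcription factors and anti-angiogenic genes were mixed. Over all tested genes, 23.2% were higher and 38.9% lower in K5/K14 tumours. Of 13 endothelial transcription factors, 1 was higher and 5 lower in K5/K14 tumours (median -0.60), with the flow-responsive factor Klf2 lower by 1.76 log2 (adjusted p = 0.0033) and Sox7 higher (1.61, adjusted p = 0.00034). Of 12 receptors and co-receptors, 2 were higher, Tie1 and Notch4 (1.41, adjusted p = 0.0026), and 3 lower (median -0.57), or 6 lower over the 15 libraries. Of 6 anti-angiogenic factors, Col18a1, the precursor of endostatin, was higher (2.30, adjusted p = 1.5e-06) and Timp3 lower (-2.03, adjusted p = 0.0013). Of 5 venule adhesion genes, Vcam1 was higher (1.06, adjusted p = 0.045) and Ackr1 lower (-2.91, adjusted p = 0.0035). Of 6 further lymphatic genes tested, 2 were higher and 4 lower (median -0.93). Foxc2 and Nr2f2 of this list also stand among the transcription factors, as Unc5b stands in both the receptor and the tip cell list. Pdpn (2.01, adjusted p = 0.016), also made by keratinocytes and fibroblasts, was higher, and Reln (-2.01, adjusted p = 0.00034) was lower. Of 10 pericyte and smooth muscle genes, 2 were higher and 3 lower, with Des, which skeletal muscle also makes, at -3.40 (adjusted p = 0.0023) and Higd1b at 2.73 (adjusted p = 3.9e-05).

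In Ivl tumours against skin, 8 of the 73 genes were higher and 8 lower (median -0.36), over the 15 libraries 8 higher and 22 lower, and by DESeq2 9 higher and 17 lower. Of all tested genes, edgeR called 20.4% higher and 15.5% lower over 19 libraries, and 54.9% in either direction over the 15. Of the 9 tip cell genes 4 were higher, led by Esm1 (3.62, adjusted p = 4.0e-05) and Apln (3.21, adjusted p = 8.0e-05), and Nid2, a basement membrane protein, was lower (-1.59, adjusted p = 0.019). In edgeR over 19 libraries 4 of the 12 ligands were higher and 0 lower, against 4 and 3 over the 15 and 5 and 2 by DESeq2, Apln and Dll4 (2.01, adjusted p = 0.00029) leading. Of the 12 receptors 0 were higher and 3 lower, or 7 lower over the 15 libraries and 4 by DESeq2, with Plxnd1 (-1.33, adjusted p = 0.016) and Nrp1 leading. Ecscr (1.76, adjusted p = 0.0081) was the 1 of 17 junction genes called. Sox7 was higher (2.01, adjusted p = 0.00013) and Fli1 lower (-1.44, adjusted p = 0.030) among the 13 transcription factors. Col18a1 was higher (1.47, adjusted p = 8.7e-05), and Timp3 (-1.40, adjusted p = 0.044) and Vash1 (-1.25, adjusted p = 0.045) lower, among the 6 anti-angiogenic factors. Of the 5 venule genes 0 were called in edgeR or DESeq2, and 0 had an unadjusted p under 0.05, and 1 of the 6 further lymphatic genes was, Itga9 (-1.08, adjusted p = 0.043). The 2 comparisons share the same 4 skin libraries, so calls in both are not independent of each other.

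In Ivl against K5/K14 tumours edgeR called 0 of the 73 genes higher and 8 lower (median -0.62), and DESeq2 called 2 higher, both in the venule list, and 20 lower. In edgeR 1.77% of all tested genes were higher and 0.593% lower. Gpihbp1 (-2.52, SE 0.54, adjusted p = 0.028) was the 1 of 17 junction genes, Notch4 (-1.28, SE 0.31, adjusted p = 0.036) the 1 of 12 receptors and Col18a1 (-0.83, SE 0.19, adjusted p = 0.033) the 1 of 6 anti-angiogenic factors called. The other 5 were ligands, led by Pgf and Angpt2, and 4 of these also stand in the tip cell list. Over the 15 libraries, where 0.41% of all tested genes were called, 2 of the 73 were called, both lower in Ivl tumours: Nid2 (-2.72, SE 0.39, adjusted p = 0.0056) and the pericyte attractant Pdgfb (-1.69, SE 0.32, adjusted p = 0.033).

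The genes whose pattern was most like that of Cdh5 across the 19 libraries, among 15367 genes with a mean over 1 CPM, were Chst7 (Pearson r of log2 CPM 0.95), Eng (0.94), Cd40 (0.94), Vwf (0.94) and Kdelr3 (0.94). Eng and Vwf are endothelial genes. Within the 11 tumours outside the set of 4 these r were 0.90, 0.84, 0.84, 0.92 and 0.94. Among the members, r with Cdh5 was 0.96 for Plvap, 0.95 for Pecam1 and 0.91 for Flt4, but 0.24 for Tek and 0.15 for Prox1, and -0.11 and -0.06 for the last 2 within the 11 tumours. For Flt4 the 5 nearest genes were Mmrn2 (0.94), Eng (0.94), its ligand gene Vegfc (0.93), Serpinf1 (0.93) and Cyba (0.93), at 0.89, 0.89, 0.95, 0.74 and 0.64 within the tumours. Flt4 had r of 0.91 with Cdh5, 0.84 with Lyve1 and 0.44 with Prox1, at 0.79, 0.37 and 0.39 within the 11 tumours. These libraries share their normalisation, their batch adjustment and the wide spread among skin samples, so the values are descriptions with no test.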

How the data were processed

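As the labels and methods tell, the authors checked reads from poly(A) libraries with FastQC 0.11.8, trimmed them, aligned them to GRCm38 with HISAT2 2.1.0, assigned them to genes with featureCounts of Subread 1.6.3 and used ComBat-seq to adjust the table for sequencing batch. The deposited values are therefore estimated counts. They are whole numbers of 45715309 to 72609771 per library, not scaled for depth. The adjustment of the authors, which can move a library towards the mean of the others, and TMM scaling both act on every CPM printed here.

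Gene names and positions came from GENCODE mouse release 21. The 32031 of 34807 genes that reached 5 counts in any library were fitted with edgeR 4.0.16 (R 4.3.3) over all 19 libraries, with TMM scaling, the quasi-likelihood F test and Benjamini-Hochberg adjustment over all genes. Ivl, K5/K14 and NormalSkin were the groups, and K5 against K14 was fitted with 4 groups. The design had assumed plain counts. The same test was used for the estimated counts. DESeq2 1.42.0, other scalings and filters, protein-coding genes alone, the 15 libraries, the set of 4 as a covariate, a replicate block and leaving out each library were the alternatives. Log2 CPM used a prior count of 2. The fit was tested on simulated counts.

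By the study's account K5 and K14 mice carried a single back tumour each, while Ivl mice could carry several. Whether Ivl or skin libraries came from separate mice is not given in the sources used here, so p-values measure the spread between these samples, which may be technical in part. No pair of libraries of 1 group agreed within counting noise (smallest chi-square of 25.9 per degree of freedom over 37 pairs). The members were named in every comparison, then VEGF and angiopoietin family genes, then per list the 2 called genes with the largest fold change. Mmrn1 was not analysed here, and Ccl21a, which matched several rows, was left out. The members, lists and tests were chosen with earlier results of these data known.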

Additional observations from a re-analysis of the deposited data

Results flagged for a closer look

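Within a group of 4 to 6 libraries, 3 of the 40 combinations of a member and a group held a library farther from the others than Dixon's 95% limit. Chance alone gives about 1 in 20. Pecam1 was 56.0 CPM in K14 tumour 2, where the other 3 K14 tumours held 119 to 127 CPM. Plvap was 67.8 CPM in the same tumour, against 101 to 106 CPM in the others. Cdh5 was 32.1 CPM in K5 tumour 2, against 71.0 to 89.3 CPM in the other 4 K5 tumours. K14 tumour 2 and K5 tumour 2 were each among the 2 lowest of the 9 K5/K14 tumours for 7 of the 10 members.

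Between tumours of the 2 origins, 8 of the 73 vessel genes that are no members passed the test of the difference itself, all lower in Ivl tumours. Of all tested genes, 1.77% were higher and 0.593% lower there. The log2 differences were -1.62 for Angpt2, -1.58 for Apln, -0.83 for Col18a1, -1.15 for Dll4, -2.52 for Gpihbp1, -1.28 for Notch4, -1.13 for Pdgfb and -2.27 for Pgf, with edgeR adjusted p-values of 0.028 to 0.0497. Of these, Pdgfb also passed over the 15 libraries (adjusted p = 0.033). Relative to Cdh5 in the same library, Angpt2, Apln and Dll4 overlapped between Ivl and K5/K14 tumours. The mean differences of these log2 ratios were -0.29, -0.42 and 0.002 over 19 libraries. Over the 15 libraries they were 0.07, 0.33 and 0.50, also with overlap. The part of endothelial content in the lower levels was not tested. The part of the tumour's site, latency and inducing drug in these differences cannot be told apart from the promoter.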

How the results depend on the processing

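For the 40 member values (10 genes in 4 comparisons), 320 refits that dropped no single library left the call as it was in 311, lost it in 3 and gained it in 6. The 760 refits without 1 library did so in 748, 7 and 5. For members that were not called the direction could change, as for Tek in K5 against K14 tumours (0.02 over 19 libraries and -0.16 over the 15). A call was reversed in 0. The 4 calls in K5/K14 tumours against skin were held in every alternative run. In Ivl tumours against skin, where 1 member was called, the count was 0 with DESeq2 size factors, 0 with the stricter filter, 2 with DESeq2's Wald test, 2 within the 15 libraries and 2 with the set of 4 as a covariate, and 0 to 2 without 1 library. With protein-coding genes alone it was 1, Tek (adjusted p = 0.049) in place of Emcn (0.055). In Ivl against K5/K14 tumours, DESeq2's Wald test called 1 member instead of 0. Of the 73 other vessel genes, 16 were called in Ivl tumours against skin, 30 within the 15 libraries and 26 by DESeq2. In Ivl against K5/K14 tumours these counts were 8, 2 and 22 (2 of the 22 higher). The 15 libraries hold fewer samples, and the cause of the other changes was not tested. DESeq2 size factors moved the median log2 fold change of all genes against skin by -0.13 (Ivl) and -0.11 (K5/K14), that of the members by -0.12 and -0.10, and the share of calls that were higher in Ivl tumours from 56.8% to 45.6%. Blood minus lymphatic values come from log2 CPM without a fit, so alternatives that change only the test cannot move them. Under the alternatives applied to them, these values moved by less than 1 SD. With a replicate block, members called were 1, 5 (Plvap added, 1.59, adjusted p = 0.038), 0 and 0, and no other member call changed. The labels do not say whether libraries with the same number are matched. Of 25 same-numbered pairs, 9 had deviations correlated over 0.1 (r from -0.48 to 0.39), which cannot decide it. Over all genes, calls in Ivl against K5/K14 tumours numbered 756, but 2133 by DESeq2, 449 with the covariate, 498 of protein-coding genes, 131 within the 15 libraries, 46 with the replicate block and 127 to 1328 without 1 library. In Ivl tumours against skin they were 11515 and 17566 within the 15 libraries, in K5/K14 tumours 19916 and 11521 of protein-coding genes, and in K5 against K14 tumours 0 and 173 by DESeq2.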
